A study of Homo sapiens with 8 samples.

Results

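The genes described here encode the machinery of oxidative phosphorylation, and the measurement is the binding of the PML::RARA fusion protein at their promoters. The members were the peaks whose gene symbol begins with NDUF, UQCR, ATP5 or COX followed by a digit, or is SDHA, SDHB, SDHC, SDHD or CYCS. There were 57 such peaks with 56 different symbols, of 7169 peaks with a gene symbol and 15412 peaks in all. They named 44 genes of structural subunits, CYCS, 8 assembly factors and 3 other symbols. The remaining 7112 peaks with a gene symbol served as the comparison and are called the other labelled peaks.

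U937-PR9 is a human myeloid cell line with a PML::RARA transgene under a promoter that zinc switches on. Cells received 100 μM ZnSO4 (induced) or sterile water (uninduced) for 5 h, and Cut&Run, in which a nuclease tethered to an antibody releases bound DNA for sequencing, was performed on isolated nuclei. The study made 8 libraries, 2 replicates of each combination of zinc or water with an anti-PML::RARA or an anti-RARA antibody. The peak list analysed here combines the 2 replicates of induced cells with the anti-PML::RARA antibody into 1 set of values, so neither a spread between replicates nor a test over samples can be given. The values below are a description of 1 list, the differences between groups of peaks were not tested, and the depth of the libraries is unknown. Induced cells differ from uninduced cells in both zinc and PML::RARA, and these cannot be told apart in the list. Gene expression was not analysed here.

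Oxidative phosphorylation takes place in the inner mitochondrial membrane. Complex I accepts electrons from NADH and complex II from succinate, complex III passes them to cytochrome c, and complex IV hands them to oxygen. The proton gradient built on the way drives ATP synthase. A few subunits are encoded by mitochondrial DNA and the rest by nuclear genes on many chromosomes, which is why their joint transcription depends on nuclear transcription factors. NRF1, the ETS factor GABP and YY1 are well known activators of these genes, and NF-Y binds the CCAAT box of many housekeeping promoters.

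The apex of a peak is the middle of its interval of largest signal. The sequences below are examples of matches within 200 bp of the apex of these peaks. All were read from the hg19 genome on the strand of the gene, 5′ to 3′, lie outside annotated exons, and carry the match in capitals with 20 bases on each side. The first group holds matches to the NRF1 word GCGCANGCG, or its reverse complement, at 4 complex I or complex IV subunits with peaks of height 16 to 32.

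NDUFAB1, chr16:23607654-23607702, minus strand: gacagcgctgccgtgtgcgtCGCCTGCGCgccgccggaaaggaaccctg

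NDUFA12, chr12:95397561-95397609, minus strand: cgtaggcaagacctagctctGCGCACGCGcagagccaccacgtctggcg

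NDUFB4, chr3:120315100-120315148, plus strand: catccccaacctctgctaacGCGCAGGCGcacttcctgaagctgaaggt

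COX6A1, chr12:120875677-120875725, plus strand: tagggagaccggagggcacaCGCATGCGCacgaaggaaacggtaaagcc

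The next holds the ETS word CCGGAAGT, in reverse complement, at a subunit of the peripheral stalk of ATP synthase with a peak of height 42.

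ATP5PD, chr17:73043139-73043186, minus strand: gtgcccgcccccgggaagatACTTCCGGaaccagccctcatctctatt

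The last group holds the NF-Y word GCCAAT, or its reverse complement, at 3 of the highest peaks, with heights of 51, 56 and 73. These 3 were chosen after their values were seen. The matches at ATP5MC1 and NDUFA11 lie 178 and 177 bp downstream of the apex. NF-Y words also occur at lower peaks, as at ATP5MC3 with 25, and NRF1 words at higher ones, as at ATP5MC2 with 35. No YY1 match is shown.

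CYCS, chr7:25164982-25165027, minus strand: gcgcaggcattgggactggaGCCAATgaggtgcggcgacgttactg

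ATP5MC1, chr17:46970050-46970095, plus strand: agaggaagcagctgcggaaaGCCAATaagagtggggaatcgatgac

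NDUFA11, chr19:5904521-5904566, minus strand: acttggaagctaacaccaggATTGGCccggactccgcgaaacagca

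Of 84 nuclear genes for structural subunits and cytochrome c, 45 had a peak under their own symbol, a share of 53.6% (Wilson 95% interval 43.0 to 63.8%), against 30.3% of all 20098 protein-coding genes of the annotation. The comparison includes genes that are silent in this cell type, since expression was not analysed. ATP synthase had the most complete coverage, with 13 of 17 subunit genes or 76.5% (52.7 to 90.4%). Complex I had 17 of 37 (45.9%, 31.0 to 61.6%), complex II 2 of 4, complex III 4 of 8 and complex IV 8 of 17 (47.1%, 26.2 to 69.0%). CYC1 of complex III, which the symbol rule does not match, had a labelled peak but was left out of the 84 genes. The intervals of the 5 complexes overlap, and they cover the counting of genes only.

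Each peak carried at most 1 symbol in the list, and counting by position raised the share. An apex lay within 1 kb of an annotated start site of 59 of the 84 genes, or 70.2% (59.8 to 79.0%), against 39.3% of all protein-coding genes. Counted in this way, complex III reached 7 of 8 genes, ATP synthase 15 of 17, complex I 24 of 37, complex II 3 of 4 and complex IV 9 of 17. With only labelled peaks at or above the median height of the whole list, 26 of the 84 genes were counted, or 31.0%, against 17.7%.

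**Figure D1:**
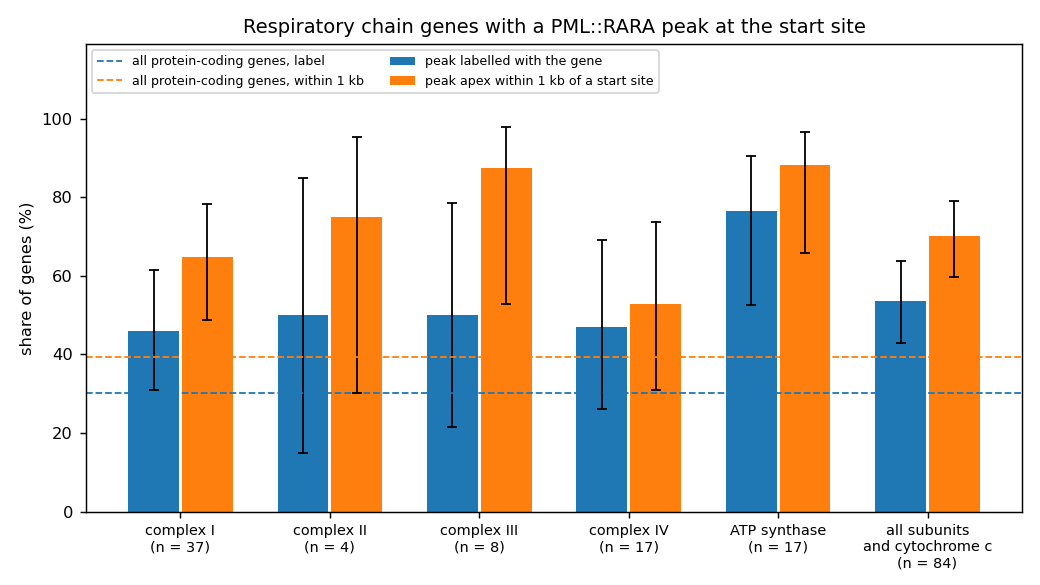
Share of nuclear subunit genes (y axis, percent) with a peak labelled by their own symbol (blue) or with a peak apex within 1 kb of a start site (orange), by complex, with Wilson 95% intervals. Dashed lines give the shares over all protein-coding genes, 30.3% and 39.3%, and each of the bars lies above the line of its colour, with ATP synthase the highest by label at 76.5%.

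The difference between the counts rests on 14 genes with an apex within 1 kb of a start site in a peak without their symbol. At 12 of them the peak carried the symbol of another gene. The ATP5F1B peak had the greatest height of the 14, 48, and was labelled SNORD59A, although ATP5F1B encodes the catalytic beta subunit of ATP synthase (chromosome 12, 57039142 to 57040388). At NDUFB9, an accessory subunit of complex I, a peak of height 45 was labelled TATDN1. UQCRH, the hinge protein of complex III, had a peak of height 37 labelled LRRC41, UQCRQ one of 36 labelled GDF9, and UQCR10 one of 26 labelled ZMAT5. COX4I1, the ubiquitous form of subunit 4 of complex IV, had a peak of height 30 and 1858 bp wide, labelled EMC8 (chromosome 16, 85832355 to 85834212). SDHD, a membrane anchor of complex II, had a peak of height 22 labelled TIMM8B, a gene of mitochondrial protein import. The others were NDUFA1 (labelled RNF113A, height 30), ATP5MK (MIR1307, 27), NDUFA3 (OSCAR, 23), NDUFB2 (NDUFB2-AS1, 18) and NDUFB5 (MRPL47, 16). At NDUFS7 and NDUFV1, both core subunits of complex I, the peaks had no symbol and heights of 30 and 28.

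For the other 25 of the 39 genes without their own label, no apex lay within 1 kb of a start site. The distance to the nearest apex ranged from 1578 bp at NDUFS6 to 1372030 bp at NDUFA5, with a median of 44710 bp, and exceeded 10 kb at 20 of the 25. In complex I these were NDUFS3, NDUFS4, NDUFS6, NDUFA5, NDUFA8, NDUFA9, NDUFA10, NDUFA13, NDUFB1, NDUFB3, NDUFB6, NDUFB8 and NDUFC2. SDHA, the flavoprotein of succinate dehydrogenase, and UQCRFS1, the Rieske iron-sulfur protein of complex III, were among them, as were ATP5F1C and ATP5PB of ATP synthase. Complex IV contributed COX6C, COX7B and COX7C together with COX4I2, COX6A2, COX6B2, COX7A1 and COX7B2, which are isoforms used in particular tissues. Of 6 such isoforms 1 had a peak, and of the 11 other complex IV genes 8 had an apex within 1 kb. A gene that is missing from the list was not reproducibly above the authors' threshold, which does not show that nothing was bound.

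Peak height, the largest signal within a peak in the units of the list, whose scaling is not stated, spread widely among the 57 peaks, from 16 to 73. Its median was 25 with quartiles of 21 and 38, and that of the other labelled peaks was 26 with quartiles of 20 and 35. A height of 35 or more was reached by 20 of the 57 peaks (35.1%, 24.0 to 48.1% by the Wilson method) and by 25.4% of the other labelled peaks. A height of 20 or less was found for 12 (21.1%, 12.5 to 33.3%), against 26%. Both intervals contain the share of the other labelled peaks.

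Wide peaks were fewer. The median width was 1010 bp with quartiles of 786 and 1284 bp, against 1108 bp with quartiles of 769 and 1542 bp. Of the 57 peaks, 7 were at least 1542 bp wide (12.3%, 6.08 to 23.2%), against 25% of the other labelled peaks, while 12 were no wider than 769 bp (21.1%), against 25%. Total signal, summed over the width, had a median of 9204 against 10085. Height and width rose together across the members, with a Spearman's rho of 0.57 over 57 peaks of the same libraries, and of 0.45 over the other labelled peaks. Among peaks at or above the median width of the whole list, the median height was 34.5 for 38 members against 29 for the others.

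**Figure D2:**
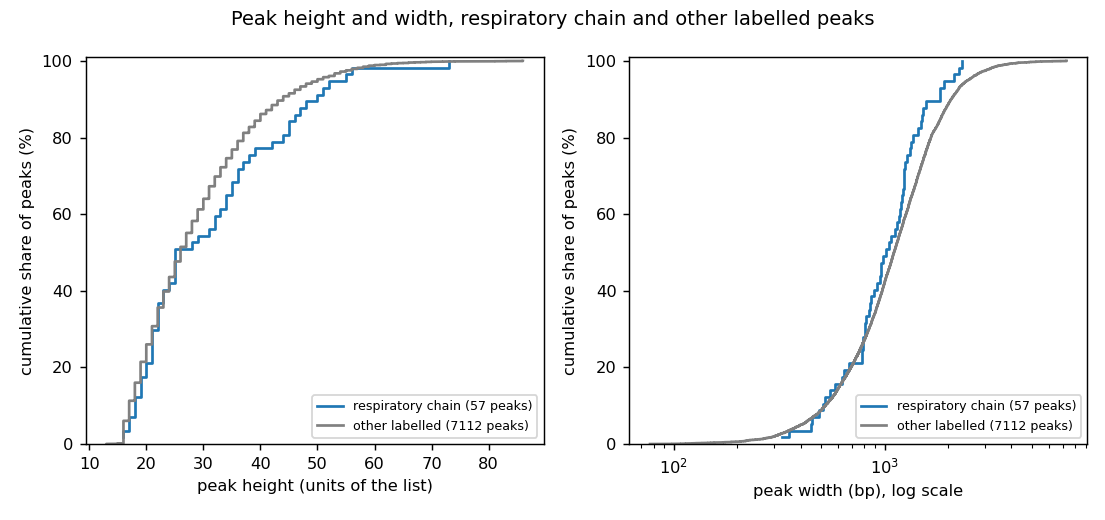
Cumulative share of peaks (y axis, percent) against peak height (left, units of the list) and peak width (right, bp, log scale) for the 57 respiratory chain peaks (blue) and the 7112 other labelled peaks (grey). The height curves meet near the medians of 25 and 26 and part above them, and the blue width curve ends at 2327 bp while the grey one reaches 7313 bp.

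Complex I, the entry point for electrons from NADH, held the highest peak of all members. NDUFA11, an accessory subunit of the membrane arm, had a peak of height 73 and 2253 bp wide (chromosome 19, 5903213 to 5905465), higher than 99.8% of the other labelled peaks. Its apex lay 703 bp upstream of the nearest NDUFA11 start site, and the peak also covered starts of VMAC and of ENSG00000267314 on the opposite strand, the latter 132 bp from the apex, so the signal cannot be given to either gene alone. NDUFA6 (chromosome 22, 42486161 to 42487599) followed with a height of 50 and NDUFA2 (chromosome 5, 140026674 to 140027872) with 48. NDUFC1 reached 45.

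At the other end, NDUFAB1, the mitochondrial acyl carrier protein, had a height of 16, and NDUFA12 had 17. These are among the lowest in the list, since only 0.2% and 6.1% of the other labelled peaks were lower. The median over the 17 complex I subunit peaks was 28, with 7 at 35 or more and 3 at 20 or less. Of the 7 core subunits encoded in the nucleus, 4 had a labelled peak, among them NDUFS8 with a height of 38, NDUFS1 with 28 and NDUFV2 with 23. The 13 labelled accessory subunits spanned the whole range from 16 to 73 with a median of 24, and the 4 core subunits lay within that range. NDUFB4, an accessory subunit, had a narrow peak of 448 bp with a height of 24.

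Complex II, or succinate dehydrogenase, also belongs to the citric acid cycle. SDHB, its iron-sulfur subunit, had a height of 52 (chromosome 1, 17379681 to 17380917), above 95.8% of the other labelled peaks, with the apex 137 bp upstream of the start site. SDHC, a membrane anchor, had a height of 18 (chromosome 1, 161283912 to 161284769). The 2 labelled subunits of the same enzyme thus stood near opposite ends of the distribution.

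Complex III had 4 labelled peaks under the symbol rule. UQCR11, a small subunit, had a peak 1835 bp wide that reached 34. The core proteins UQCRC1 and UQCRC2 had heights of 22 and 21, and UQCRB had 19. None of the 4 reached 35, and their median was 21.5. By position, the peaks at UQCRH and UQCRQ, labelled LRRC41 and GDF9, reached 37 and 36, higher than any of them. The peak at UQCR10, labelled ZMAT5, had 26, and CYC1, outside the symbol rule, had 24 under its own symbol.

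CYCS encodes cytochrome c, which carries electrons from complex III to complex IV and triggers apoptosis when it leaves the mitochondrion. The CYCS peak, 1183 bp wide, reached 51 (chromosome 7, 25164443 to 25165625), above 95.2% of the other labelled peaks by height and 55.0% by width.

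Complex IV, cytochrome c oxidase, had 3 peaks close together at the top. COX8A reached 46 (chromosome 11, 63741677 to 63742632), NDUFA4, now counted as a complex IV subunit, 45, and COX5A (chromosome 15, 75229544 to 75230778) 44. The next, COX6A1, had 32 and was only 350 bp wide, with 3.5% of the other labelled peaks narrower. COX5B had a height of 29, COX6B1 25, COX8C 22 and COX7A2 19. COX8C was the 1 tissue-specific isoform with a labelled peak, 1515 bp wide, and the end of its interval of largest signal was missing.

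In ATP synthase, heights differed between parts of the enzyme. The proton-carrying c-ring is encoded by ATP5MC1, ATP5MC2 and ATP5MC3, whose mature proteins are the same, and all 3 had a peak. ATP5MC1 had the highest, 56 (chromosome 17, 46969496 to 46970732), ATP5MC2 had 35 and ATP5MC3 25. In the peripheral stalk, which holds the head still, ATP5PD had 42, ATP5PO 36 and ATP5PF 35. In the head and central stalk, ATP5F1E had 37, ATP5F1D 25 and ATP5F1A 21, the last with the narrowest peak of all members, 327 bp (chromosome 18, 43684110 to 43684436). The small subunits of the membrane part had the lowest values, with 23 at ATP5ME, 19 at ATP5MF, 18 at ATP5MPL and 16 at ATP5MG. The highest of these 4, at 23, lay just below the lowest of the c-ring, at 25. Both values lie between the quartiles of the other labelled peaks, 20 and 35. ATP5F1A of the head lay within the range of the 4. By position, the peak at ATP5MK of the membrane part, labelled MIR1307, had a height of 27, above ATP5MC3. The peak at ATP5F1B of the head, labelled SNORD59A, had 48, above every labelled ATP synthase peak but that of ATP5MC1. The parts were chosen with earlier results known and their difference was not tested. The second ATP5PF peak, at 20, fell within the range of the membrane part.

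ATP5PF was the only symbol with 2 peaks. The stronger one (chromosome 21, 27106758 to 27107737) also covered the start of GABPA, whose nearest start lay 26 bp from the apex and which, on the opposite strand, encodes the DNA-binding subunit of GABP. The second one (27107842 to 27108389), had its apex 12 bp from an ATP5PF start site.

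**Figure D3:**
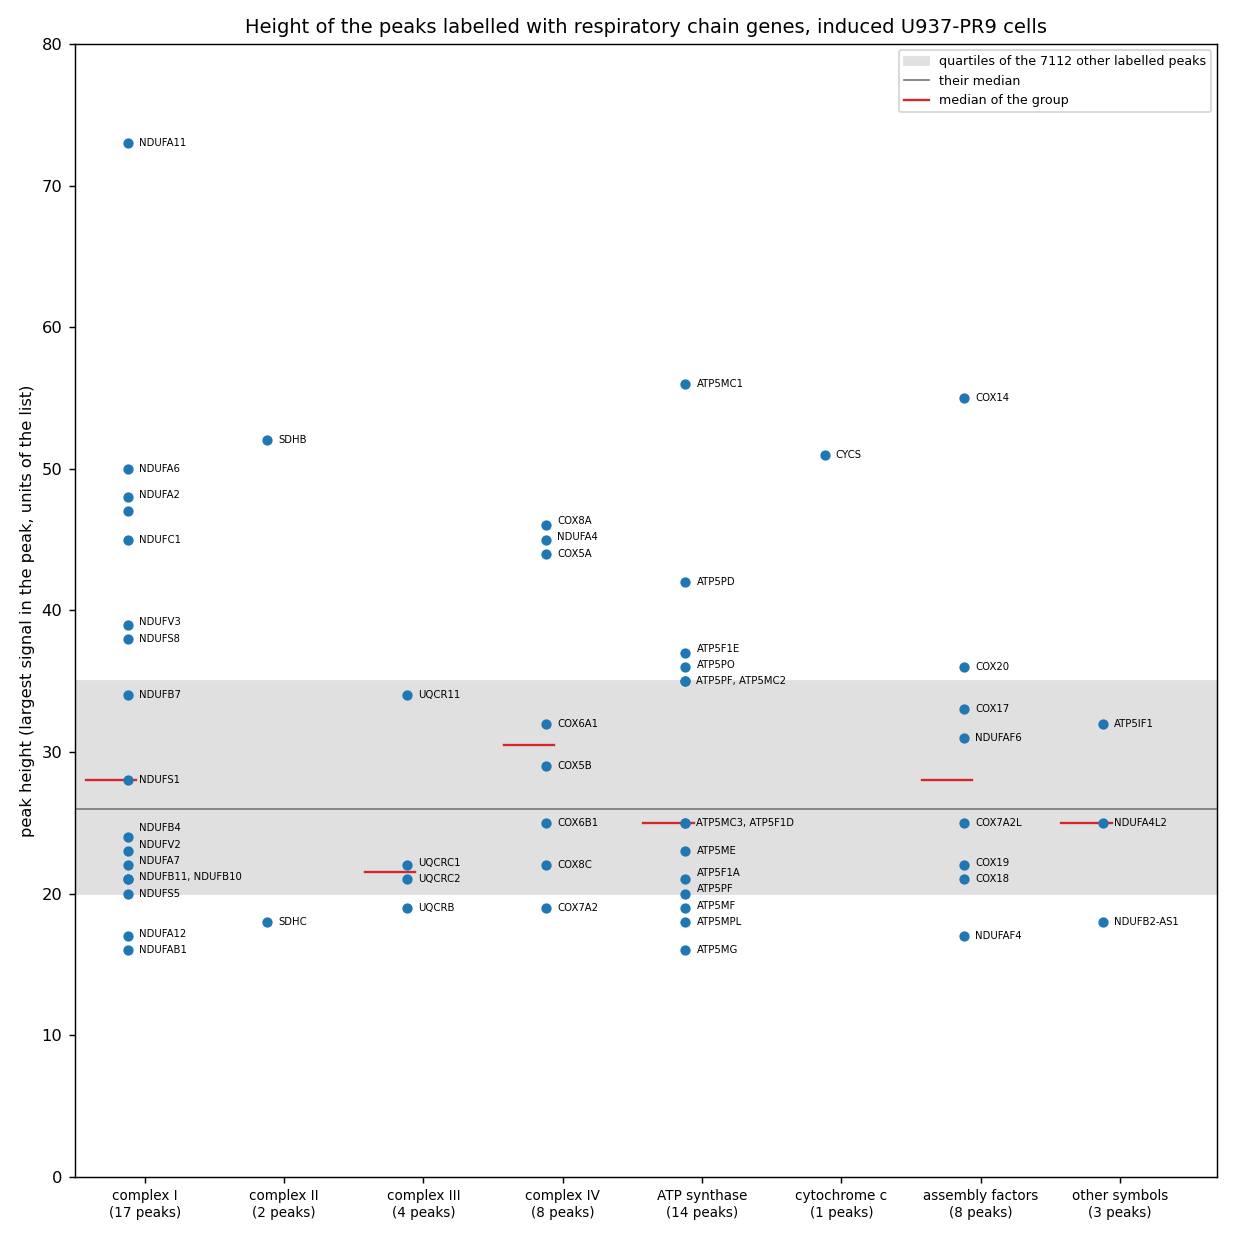
Peak height (y axis, units of the list) of each of the 57 peaks by complex, with the gene beside its point for all but 1 and red bars for the medians of groups of 3 or more peaks; the grey band and line give the quartiles and median of the 7112 other labelled peaks. NDUFA11 at 73 stands above all others, and the 4 complex III peaks lie at or below 34.

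Assembly factors build the complexes and are not part of them. COX14, which acts early in complex IV assembly, had a peak of height 55 and 2137 bp wide (chromosome 12, 50504562 to 50506698). COX20 had 36, the copper chaperone COX17 33, COX7A2L, a factor of respiratory supercomplexes, 25, COX19 22 and COX18 21. For complex I, NDUFAF6 had 31 and NDUFAF4 had 17. Their median of 28 was close to that of the subunits, 25. By gene, 6 of 10 complex IV assembly factors had a labelled peak (31.3 to 83.2% by the Wilson method). For complex I, 2 of 8 assembly factors did (7.15 to 59.1%). The share over all protein-coding genes, 30.3%, lies within the complex I interval and just below the complex IV interval. Both intervals are wide and they overlap.

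The remaining 3 symbols differ in kind. ATP5IF1 encodes the inhibitor of ATP synthase and had a height of 32. NDUFA4L2 is a paralogue of NDUFA4 known for its induction by hypoxia. Its peak was the widest of the members, 2327 bp, and reached 25. The apex lay 1324 bp downstream of the nearest annotated start site, the only member over 1 kb away, and upstream of the canonical one. NDUFB2-AS1 is a noncoding RNA antisense to NDUFB2, and its peak of height 18 covered the start of NDUFB2.

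Most apexes lay just upstream of the gene. The median distance to the nearest start site of the labelled gene was 54 bp with quartiles of 21 and 139 bp, against 103 bp with quartiles of 37 and 238 bp for the other labelled peaks. Since the authors gave a symbol where the apex overlapped a promoter, closeness to a start site is partly set by the label. Relative to the canonical transcript, the apex was upstream of the start at 49 of 57 peaks (86.0%, 74.7 to 92.7%), against 75.5% of the other labelled peaks. It lay in a 5′ UTR at 4 peaks (NDUFB4, ATP5ME, COX7A2 and NDUFAB1), in intron 1 at NDUFC1, COX17 and COX19, and in exon 1 at NDUFB2-AS1.

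Some promoters were shared with another gene. The peak also covered a start site of a protein-coding gene on the opposite strand at 11 of 57 (19.3%, 11.1 to 31.3%), against 16.5%, which lies within the interval. The partners included EEF1B2 at NDUFS1, RPS28 at NDUFA7, NAA15 at NDUFC1, IK at NDUFA2, RBM10 at NDUFB11, KCTD2 at ATP5PD, HAUS1 at ATP5F1A and MYL5 at ATP5ME. The 11 shared peaks had a median height of 28 and the other 46 one of 25, against 29 and 26 in the other labelled peaks.

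Sequence was compared within 200 bp of the apex, on both strands. The NRF1 word GCGCANGCG occurred in 18 of 57 peaks (31.6%, 21.0 to 44.5% by the Wilson method), against 15.6% of the other labelled peaks. The YY1 word AANATGGCG occurred in 15 (26.3%, 16.6 to 39.0%), against 6.97%. At least 1 of both words was present in 30 peaks (52.6%, 39.9 to 65.0%), against 21.2%, and both were present in 3. The SP word GGGCGGGG was less frequent, in 14 peaks (24.6%, 15.2 to 37.1%), against 43.5%, while the GC content of the windows had a median of 62.6% against 64.3%. The NF-Y word GCCAAT occurred in 15 peaks (26.3%) against 25.2%, and the ETS word CCGGAAGT in 6 (10.5%) against 8.76%. The retinoid half-site AGGTCA, the element of the RARA part of the fusion, occurred in 15 (26.3%, 16.6 to 39.0%) against 16.5%. Direct repeats of it with a spacing of 1, 2 or 5 bases occurred in 0 of 57 peaks, which allows a share of up to 5.26% by 3 counts or 6.31% by the Wilson method, against 0.0703%. A direct repeat contains the half-site, and NRF1 matches on opposite strands can overlap and were then counted as separate matches, not as separate peaks.

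**Figure D4:**
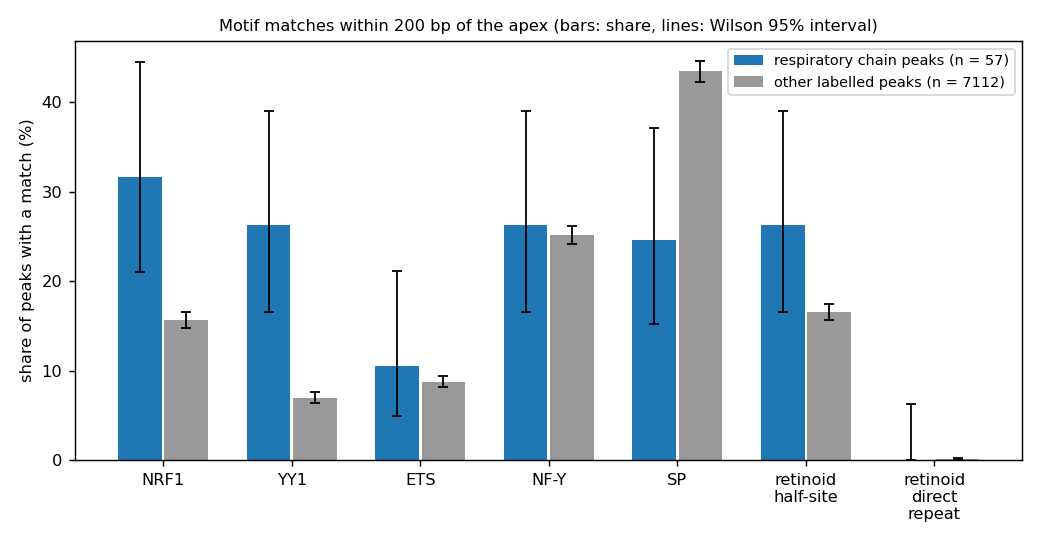
Share of peaks (y axis, percent) with a match within 200 bp of the apex for 7 words (x axis), in the 57 respiratory chain peaks (blue) and the 7112 other labelled peaks (grey), with Wilson 95% intervals. NRF1 and YY1 matches are more frequent in blue, SP matches in grey, and NF-Y matches differ by about 1 percentage point.

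Positions of the matches were counted in the members only. The search window followed the apex, which mostly lay just upstream of the start, so these positions are partly set by the window. NRF1 words lay mostly at the start site or upstream of it, with 25 of 29 matches there and 22 within 100 bp of the nearest start site of the gene. YY1 words lay around the start site, with a median position of 7 bp downstream, 8 of 15 downstream of the nearest start and 10 downstream of the canonical one. Of the 15, 11 were written 5′ to 3′ on the strand of the gene. The word contains an ATG, as a start codon does, and its part in a site or in coding sequence was not tested. With 100 bp on each side of the apex in place of 200, the YY1 share fell to 7.02% (2.76 to 16.7%), against 3.43%. That interval contains the share of the other labelled peaks. Most peaks with a YY1 match had it only in the outer part of the window. With 100 bp the NRF1 share was 29.8% against 10.6%.

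Height differed between members with and without certain words. The 18 peaks with an NRF1 word had heights of 16 to 36 with a median of 22.5, and the 39 without had 17 to 73 with a median of 33. The highest with the word were ATP5PO at 36 and ATP5MC2 and ATP5PF at 35, and 3 of 18 were at 35 or more, against 17 of 39 without it. In the other labelled peaks both medians were 26. The NF-Y word went the other way. The 15 peaks with GCCAAT had a median of 42 and the 42 without had 23.5, and 11 of 15 were at 35 or more, against 9 of 42. They included NDUFA11, ATP5MC1, COX14, CYCS, NDUFA6, NDUFA2 and COX8A, and the lowest was UQCRB at 19. In the other labelled peaks the medians were 30 with and 25 without the word, the same direction with a smaller difference. Only 3 members had both words, with heights of 19, 25 and 32. The 12 with the NF-Y but not the NRF1 word had a median of 47, above each of these. Among members without the NF-Y word the NRF1 difference was small. The 15 of these with the NRF1 word had a median of 22, and the 27 with neither word had 25. These differences were found by looking at several words in the same 57 peaks and were not tested.

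**Figure D5:**
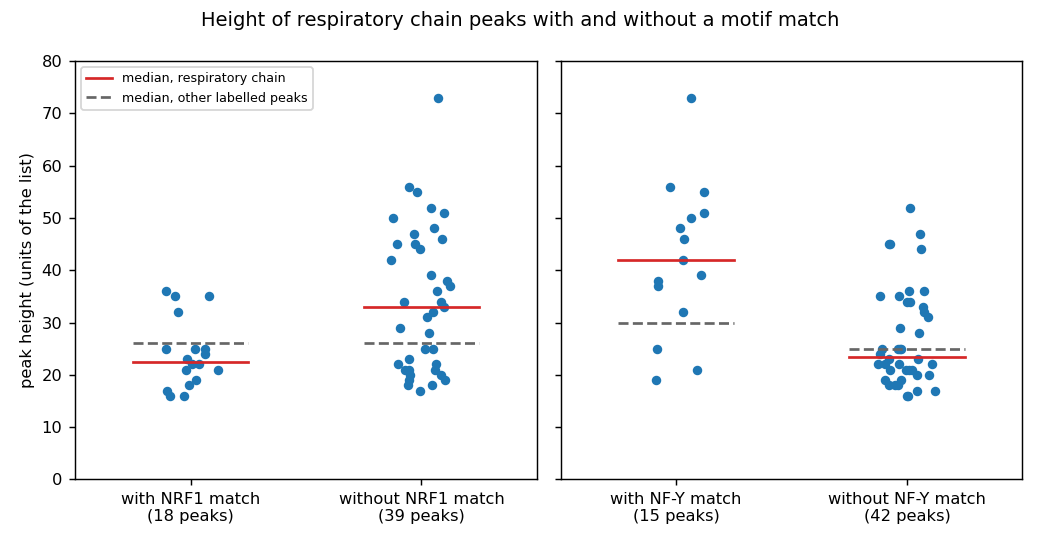
Peak height (y axis, units of the list) of the 57 respiratory chain peaks with and without an NRF1 match (left) or an NF-Y match (right). Each point is a peak, placed sideways at random; red lines give the medians (22.5 and 33 for NRF1, 42 and 23.5 for NF-Y) and dashed lines those of the other labelled peaks.

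Genes around the pathway were counted from lists by function. Of 16 genes of pyruvate dehydrogenase and the citric acid cycle, which supply the electrons, 13 had a labelled peak, with heights of 17 to 48. This share was 81.2%, against 30.3% of all protein-coding genes. CS, citrate synthase, had the highest, 48, followed by OGDH at 46 and PDHB at 37. DLD and MDH2 were among those with none under their own symbol. Of 12 regulators of respiratory genes, 9 had a labelled peak (46.8 to 91.1% by the Wilson method), against the same 30.3%. TFB1M, which acts on mitochondrial ribosomes, reached 51, the nuclear receptor ESRRA 46, PPRC1 36, YY1 32, TFAM, which packages and transcribes mitochondrial DNA, 19 and NRF1 itself 18. Of 24 assembly factors outside the symbol rule, 8 had a labelled peak. This share of 33.3% was close to the 30.3% of all protein-coding genes, which lies within its Wilson interval. An apex lay within 1 kb of a start site of 18 of the 24, against 39.3% of all protein-coding genes, which lies below the interval. CYC1, the cytochrome c1 subunit of complex III, which the symbol rule does not match, had a peak of height 24.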

How the data were processed

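Cut&Run was performed on U937-PR9 nuclei. The upstream steps of the authors used Trimmomatic for trimming, Bowtie2 with hg19 for alignment, Samtools and Bedtools for duplicate and blacklist filters, and SEACR (norm union, paired control) for peaks. Peaks reproducible at an IDR below 0.05 were kept. The deposited list gives each peak a total signal and a score, both whole numbers. The score was taken as the largest signal and is called height here, because its product with the width exceeded the total in each of the 15412 peaks. How the authors scaled the signal, and whether it came from 1 replicate, a mean or pooled reads, is not stated. Symbols were given by the authors from UCSC known genes.

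The members and gene lists were chosen with earlier results of these data known. Start sites came from GENCODE release 44 on GRCh37, the same build, and 6465 of 6546 symbols matched, all 56 members among them. In 34 peaks, 2 of them members, the interval of largest signal lacks an end and its start was taken as the apex. Named genes were the highest and lowest subunits of each complex, SDHA to SDHD, CYCS, symbols with several peaks, the widest and narrowest peaks, subunits without a label, the highest assembly factors, and members of other kinds. Other genes were named after their values were seen, and some items are not reported here. Shares carry Wilson intervals. Motif search and intervals were tested on simulated data. Python 3.11.15, pandas 2.3.3, scipy 1.17.1 and pysam 0.24.0 were used.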

Additional observations from a re-analysis of the deposited data

How the results depend on the processing

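No paired analysis was possible because both replicates share 1 set of values, which also left no replicate to leave out. Of 39 alternative values, 34 stayed within the 95% interval of the value reported (Wilson for shares, from ranked values for medians). The share of subunit genes with a peak, 53.6%, moved to 70.2% when counted by an apex within 1 kb of a start site and to 31.0% with labelled peaks at or above the median height only, and exceeded that of all protein-coding genes each time. The median height moved from 25 to 34.5 among peaks at or above the median width, above the 29 of the other labelled peaks instead of below it. With 100 bp on each side of the apex, the YY1 share moved from 26.3% to 7.02% and the SP share from 24.6% to 12.3%. In the other labelled peaks the YY1 share went from 6.97% to 3.43% and the SP share from 43.5% to 31.3%. The NRF1 share of the members went from 31.6% to 29.8%. A smaller window can only lower a share, and the reason for the unlike falls was not tested. The YY1 interval at 100 bp, 2.76 to 16.7%, contained the 3.43% of the other labelled peaks. The alternatives for the heights with NRF1 and NF-Y words and the count of shared promoters by canonical start sites were chosen after seeing the data, and none of them moved a value out of its interval. The lowest height among the members, 16, is near the lowest of the other labelled peaks, 13, and regions below the threshold of the peak caller are not in the list.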

Other observations

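Of 104 genes of subunits, cytochrome c and assembly factors, 6 (5.77%) had peaks without a symbol, 8 in all, within the annotated gene span. The share over all protein-coding genes was not counted, so this one cannot be called high or low. The span takes in every annotated transcript, and overlap with other genes was not examined. NDUFA12 had 2, of which the higher reached 23, above its promoter peak of 17. COX19 had 2, up to 34, above its promoter peak of 22. The higher one (chromosome 7, 940704 to 941749) lay at the opposite end of the span from that promoter. NDUFAF6 had 1 of height 32, close to its promoter peak of 31, and a peak of height 22 labelled CCNE2 lay within 1 kb of one of its start sites. ATP5F1D had 1 of height 19 within 1 kb of a start site. Near NDUFV3, whose promoter peak had a height of 39, a peak of height 27 was labelled WDR4.

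At several promoters of assembly factors the peak bore a neighbour's symbol and was high. The peak at NDUFAF8, labelled TEPSIN, had a height of 62, that at FOXRED1, labelled SRPRA, 59, and that at NDUFAF3, labelled MIR191, 44 with a width of 3320 bp. These exceed all labelled assembly factor peaks but that of COX14, at 55, or, for the first 2, that one as well.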
